A study of Homo sapiens with 8 samples.

Results

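The histone cluster genes comprise the linker histone genes (H1) and the numbered core histone genes of the H2A, H2B, H3 and H4 classes. Members were listed by gene symbol. The gene name table held 72 such genes that are reported here, and 68 of them had an entry among the 64252 genes of the count tables, namely 9 H1, 15 H2A, 18 H2B, 11 H3 and 15 H4 genes. The identifiers of H2AC18, H2AC19, H3C2 and H3C3 were not matched, and these 4 genes were not analysed here. Of the 72 genes, 55 lie on chromosome 6, 13 on chromosome 1 and 4 elsewhere.

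RNA was sequenced from 6T-CEM and J.gamma1, established human T-cell acute lymphoblastic leukemia (T-ALL) lines derived from CCRF-CEM and from Jurkat, respectively. J.gamma1 is a Jurkat derivative deficient in phospholipase C gamma 1. The groups were 6T-CEM with a control shRNA (sh-NC), 6T-CEM with an shRNA against LDB1 (sh-LDB1), J.gamma1 with sh-NC and J.gamma1 with sh-LDB1, with 2 libraries each and 8 in all. All 4 groups had been infected with lentivirus carrying the shRNA in the pLKO.1 vector and selected with puromycin, so both sh-NC groups carry vector and drug as well. Which LDB1 shRNA the sequenced cells carried is not given in the sources used here. No source says that the 2 libraries of a group came from separate cultures, so p-values measure only the spread between these libraries, which may be technical.

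LDB1, the adaptor protein that joins enhancers to promoters, had 2777 and 2996 counts in 6T-CEM sh-NC against 1078 and 1000 in sh-LDB1. It had 1909 and 1854 counts in J.gamma1 sh-NC against 929 and 906 in sh-LDB1. The normalized LDB1 level in sh-LDB1 was 33.1% of sh-NC in 6T-CEM and 54.0% in J.gamma1 and the knockdown was seen in all 4 sh-LDB1 libraries. Library totals lay between 26160492 and 30604977 counts. All 10 T-cell markers, such as CD3E and CD7, had more than 3 counts in every library, and their summed level was 1661 to 1740 CPM (counts scaled to a common library size) in 6T-CEM sh-NC, 2180 to 2190 in 6T-CEM sh-LDB1, 2882 to 3031 in J.gamma1 sh-NC and 3558 to 3586 in J.gamma1 sh-LDB1. In the B-cell list 2 of 5 markers exceeded 3 counts in both libraries of each group, and its summed level ran from 25.0 to 25.2 CPM in 6T-CEM sh-NC, 36.5 to 41.3 in 6T-CEM sh-LDB1, 72.1 to 72.6 in J.gamma1 sh-NC and 85.0 to 85.5 in J.gamma1 sh-LDB1. Of 4 erythroid markers, HBB and ALAS2 were at 0 in all libraries, and 1 marker in 6T-CEM and 2 in J.gamma1 exceeded 3 counts in both libraries of each group. The summed erythroid level was 5.41 to 5.67 CPM in 6T-CEM sh-NC, 3.78 to 5.16 in 6T-CEM sh-LDB1, 12.7 to 13.7 in J.gamma1 sh-NC and 5.35 to 7.27 in J.gamma1 sh-LDB1. The part of these shifts in the results was not tested.

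Histones are the proteins around which DNA is wound, with H2A, H2B, H3 and H4 forming the nucleosome core and H1 binding the linker DNA between cores. Most of their genes sit in clusters without introns, are transcribed in S phase when new DNA must be packaged, and give mRNAs that end in a conserved stem-loop bound by the protein SLBP, not in a poly(A) tail. H1-10 is different: it lies outside the clusters, is expressed independently of replication and gives a polyadenylated mRNA, and some cluster genes also have longer transcripts that run past the stem-loop.

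The stem-loop is shown first because it decides how the ends of these mRNAs are made. The motif searched was GGC, any base, CTTTT, any base, AG, any base and GCC. On the gene's strand and within 200 bases after the stop codon (hg38, GENCODE release 44), it was found in 65 of 72 members (90.3%) and in 3 of 19851 other protein-coding genes (0.0151%). The match began 23 to 68 bases after the stop codon. H1-7, H1-8, H1-10, H2AC15, H2BC10, H3C6 and H4C13 had no match in this window. The capitals below mark the 16 letters of the match, for members that lead the results.
H1-2, chr6:26055739-26055764, minus strand: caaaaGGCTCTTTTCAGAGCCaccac
H2AC6, chr6:26124664-26124689, plus strand: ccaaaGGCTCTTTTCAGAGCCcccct
H2BC5, chr6:26158582-26158607, plus strand: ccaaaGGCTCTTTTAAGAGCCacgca
H2BC11, chr6:27132316-27132341, minus strand: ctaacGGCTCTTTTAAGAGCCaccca
H2BC12, chr6:27146361-27146386, minus strand: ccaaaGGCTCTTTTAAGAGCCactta
H2AC11, chr6:27133510-27133535, plus strand: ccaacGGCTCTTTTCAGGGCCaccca
H4C11, chr6:27824454-27824479, plus strand: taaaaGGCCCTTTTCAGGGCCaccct
H4C14, chr1:149833027-149833052, plus strand: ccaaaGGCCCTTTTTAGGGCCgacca
The H4 genes carried their own version of the stem. All 14 H4 matches were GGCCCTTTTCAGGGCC (10 genes) or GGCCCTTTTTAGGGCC (4 genes), and no other class had these. In the other classes 40 genes had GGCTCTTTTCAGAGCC, 9 had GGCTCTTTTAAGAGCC and 1 had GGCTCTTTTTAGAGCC. H2AC11 alone joined the left arm of the common form to the right arm of the H4 form.

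Upstream, the promoters of the classes also differed in their letters. RefSeq promoters (GRCh38.p14, 250 bases before to 50 after the start) were matched for 67 members and searched on both strands. CCAAT was found in 83.6% of members against 35.7% of 27305 promoters, and in 3 of 13 H4 promoters only. TATAAA was found in 64.2% of members against 12% of all promoters. The octamer ATTTGCAT, the site letters of the POU factors OCT1 and OCT2, was found in 11 of 16 H2A promoters (68.8%) and 14 of 18 H2B promoters (77.8%), against 1.8% of all promoters and none of the 9 H1 and 13 H4 promoters. Because H2A and H2B genes often stand head to head, 1 octamer can lie in both promoters of a pair. The capitals below mark the octamer, read on each gene's own strand.
H2AC6, chr6:26124033-26124058, plus strand: ggcagagctATGCAAATgaggtatga
H2BC4, chr6:26124033-26124058, minus strand: tcatacctcATTTGCATagctctgcc
H2BC11, chr6:27132826-27132851, minus strand: cttcaccttATTTGCATaagcgattc
H2AC11, chr6:27132826-27132851, plus strand: gaatcgcttATGCAAATaaggtgaag
H2BC12, chr6:27146888-27146913, minus strand: cttcaccttATTTGCATgagaggtcc
A match is a description of the letters and not evidence of binding.

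The members were scarce in these libraries. Together they took 0.0371% to 0.0418% of the counts, and H1-10 made up 81.3% to 90.4% of that. The other 67 members summed to 1142 to 2342 counts per library, or 0.00375% to 0.00781%. Of the 68 genes, 8 were at 0 in all 8 libraries. Over the 4 libraries of 6T-CEM, 10 members were at 0, 26 averaged under 10 counts, 26 averaged 10 to 100 and 6 averaged 100 or more. In J.gamma1 these numbers were 11, 28, 24 and 5. The library kit named in the labels selects poly(A) RNA in its standard form, and the labels do not state the selection. RMRP and RPPH1, abundant RNAs without a poly(A) tail, had 0 to 27 and 2 to 9 counts (both were chosen after their values were seen). The part of RNA selection in the histone levels was not tested.

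Per length, the order of levels in control cells was led by H1-10. H1-10 stood at 239 ± 7.51 CPM per kilobase of exons in 6T-CEM sh-NC and 227 ± 10.4 in J.gamma1 sh-NC (SD, n = 2). In 6T-CEM the next levels were H2BC12 at 19 ± 1.18, H2AC20 at 7.84 ± 1.27, H1-2 at 7.45 ± 1.5 and H2BC9 at 7.37 ± 1.23, and the last 3 did not differ beyond their spread. H4C11 led the H4 class at 5.55 ± 0.136 and H3C8 the H3 class at 0.974 ± 0.438. In J.gamma1 H1-2 stood at 9.95 ± 0.875, H2BC12 at 6.89 ± 2.08, H2BC5 at 3.12 ± 0.112 and H2AC11 at 2.79 ± 0.805, the highest H2A gene there. H2BC5 and H2AC11 did not differ beyond their spread. H4C9 led the H4 class at 2.13 ± 0.175 and H3C8 the H3 class at 1.5 ± 0.238. The order depends on annotation, as exon length covers all annotated transcripts and long ones lower the level per length. In J.gamma1 sh-NC H2AC6 had 113 and 96 counts over 1668 bases and H2AC25 69 and 141 over 1850. H2AC11 had 50 and 33 counts over 493 bases.

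Some histone genes were called higher with LDB1 knockdown in each line, and no member was called lower. The share called higher was close to that of all genes in 6T-CEM and somewhat above it in J.gamma1. In 6T-CEM 36 members passed the filter on low counts and 7 of them (19.4%) were higher in sh-LDB1 at an adjusted p under 0.05 (edgeR, quasi-likelihood test, Benjamini-Hochberg adjustment over all genes), where the background was 15.1% of all genes tested. None was lower, against a background of 16.2%. In J.gamma1 32 members passed and 11 (34.4%) were higher, against a background of 25.0%, while none was lower against 26.5%. At an unadjusted p under 0.05 the counts were 9 higher and 2 lower (H1-10 and H2AC11) in 6T-CEM, and 12 higher and 0 lower in J.gamma1. DESeq2 called 0 members lower in either line. The filter needed enough counts in only 2 libraries of a line, so a member could pass through the group where it was high. H4C8 and H2AC7 in J.gamma1 and H2BC18 in 6T-CEM, all called higher, had under 10 counts in both sh-NC libraries. Such members enter the shares and medians given here. With no filter, 7 members were higher in 6T-CEM and 10 in J.gamma1.

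Past a log2 fold change of 1, 5 of 36 members were higher in 6T-CEM (background 2.74%) and 9 of 32 in J.gamma1 (background 6.67%). Past -1 there were 0 in either (background 2.39% and 7.19%). The median SE of tested members was 0.46 and 0.49, beside 0.13 and 0.12 over all genes. A typical member therefore needed a larger change to be called. The median log2 fold change of the tested members was 0.35 in 6T-CEM, and for J.gamma1 it was 0.57, beside 0.00 over all genes tested in either line. Positive changes numbered 22 and negative ones 14 in 6T-CEM, and 23 and 9 in J.gamma1. Library values of the groups did not overlap in the higher direction for 16 members in 6T-CEM (44.4%, background 32.4%) and for 17 in J.gamma1 (53.1%, background 37.6%). In the lower direction this held for 5 (background 32.7%) and 2 (background 38.2%). In bulk RNA, more cells with a transcript and more transcript per cell cannot be told apart.

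**Figure D1:**
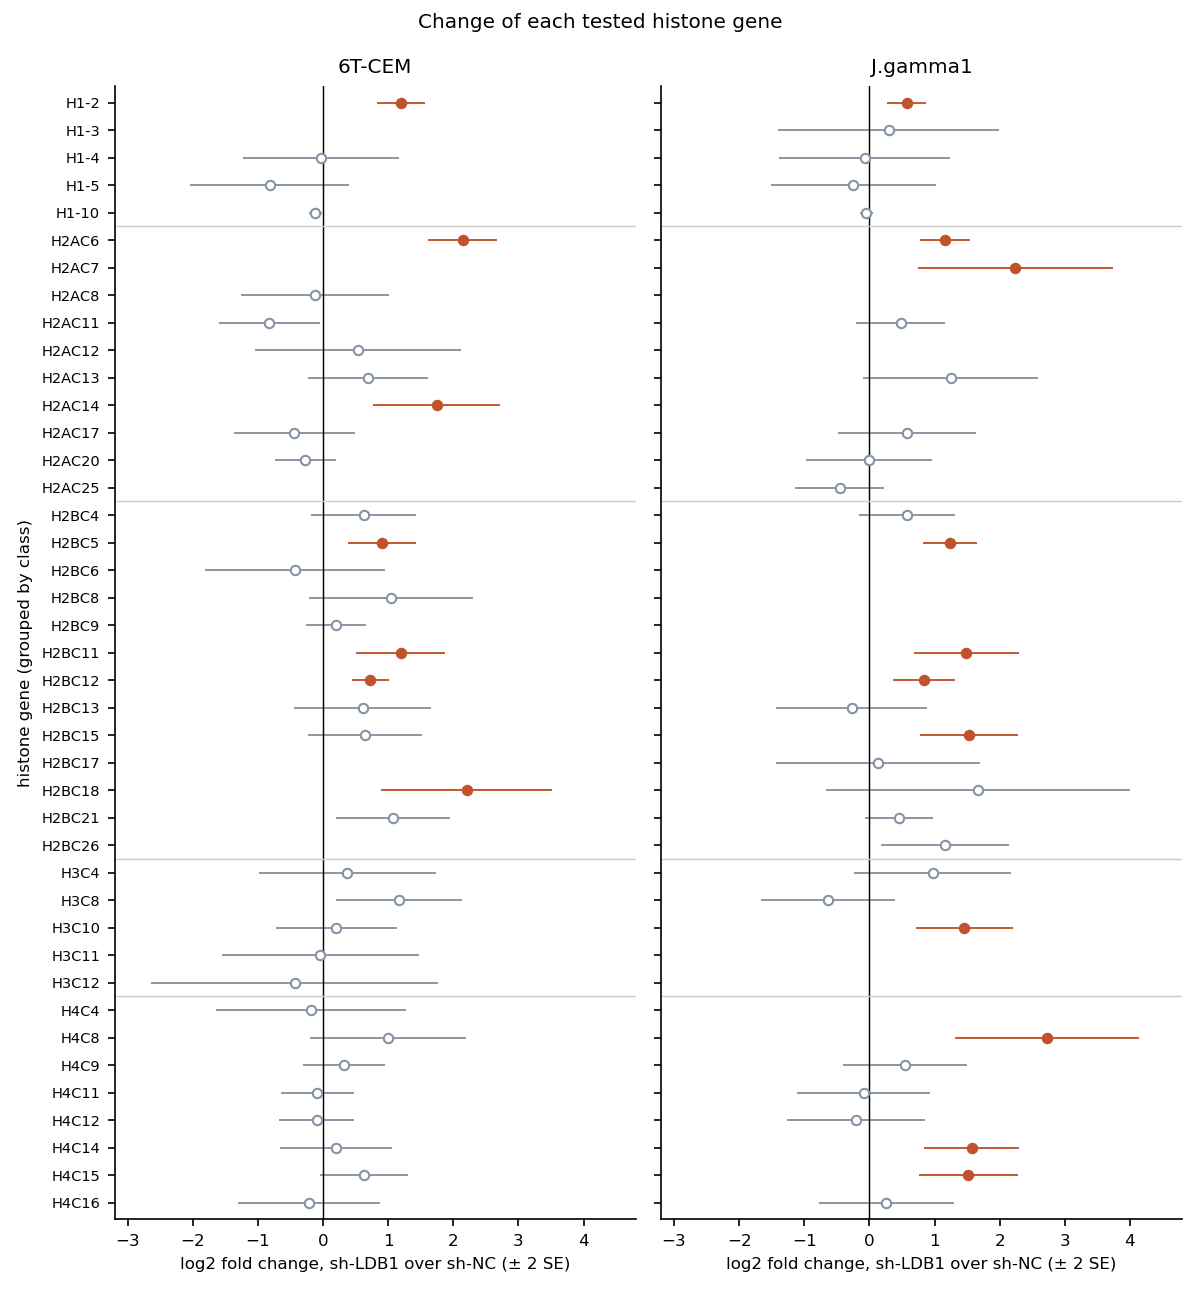
Log2 fold change of sh-LDB1 over sh-NC (x axis) for each histone gene that passed the filter (y axis, grouped by class), in 6T-CEM and J.gamma1. Points are edgeR estimates, bars are ± 2 SE, and filled points mark an adjusted p under 0.05: the 7 filled points in 6T-CEM and the 11 in J.gamma1 all lie to the right of 0.

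Which calls held depended on the libraries used. H1-2, H2AC6 and H2BC12 were higher in 6T-CEM under all 13 settings tried, and H2AC6, H2BC5 and H4C14 were in J.gamma1. In 6T-CEM the count of higher members was 3 by DESeq2, 3 without sh-LDB1 replicate 2, 4 without sh-NC replicate 1 and 4 without sh-NC replicate 2. In J.gamma1 it was 6 without sh-LDB1 replicate 2, and without sh-NC replicate 1 H2AC25 was called lower there, whose counts were 69 and 141 in sh-NC and 75 and 63 in sh-LDB1.

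Among the linker histones described here, H1-2 rose in both lines and H1-10 was called in neither. The filter kept 4 of 9 H1 genes in 6T-CEM, of which 1 was higher (25%, background 15.1%). In J.gamma1 it kept 5, of which 1 was higher (20%, background 25.0%). H1-2 (chr6:26055740-26056470), a replication-dependent linker histone with the stem-loop shown above, had 170 and 132 counts in 6T-CEM sh-NC and 343 and 412 in sh-LDB1. All sh-LDB1 values were above all sh-NC values, and the log2 fold change was 1.20 ± 0.18 (SE, edgeR adjusted p = 0.000185). Its J.gamma1 counts were 206 and 233 in sh-NC and 291 and 299 in sh-LDB1. The groups did not overlap there either, at a log2 fold change of 0.57 ± 0.15 (edgeR adjusted p = 0.00858). That call was lost without J.gamma1 sh-NC replicate 1, and the adjusted p ranged from 0.00678 to 0.0592 over the alternatives.

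H1-10 (chr3:129314771-129316286), the most abundant member, had 10103 and 10003 counts in 6T-CEM sh-NC and 10170 and 10015 in sh-LDB1. After normalization the sh-LDB1 values were the lower ones, 9684 ± 73.2 against 10500.4 ± 331, but the edgeR adjusted p was 0.104 at a log2 fold change of -0.12 ± 0.05. In J.gamma1 it had 10737 and 10051 counts in sh-NC and 8578 and 9639 in sh-LDB1, and the normalized groups overlapped at a log2 fold change of -0.05 ± 0.05. H1-10 shares 345 exon bases with the antisense gene H1-10-AS1, and whether the counting used the strand is not given in the sources used here. H1-4 and H1-5, with at most 24 counts in a library, were not called in either line.

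Among the H2A genes, H2AC6 had the largest well-measured change. The filter kept 8 of 15 H2A genes in 6T-CEM, of which 2 were higher (25%, background 15.1%). For J.gamma1 it kept 7, of which 2 were higher (28.6%, background 25.0%). H2AC6 (chr6:26124145-26139116) had 44 and 31 counts in 6T-CEM sh-NC and 208 and 155 in sh-LDB1. The sh-LDB1 mean was 443% of the sh-NC mean, with a log2 fold change of 2.14 ± 0.27 (edgeR adjusted p = 2.49e-05). The J.gamma1 libraries held 113 and 96 counts in sh-NC and 199 and 224 in sh-LDB1. The groups did not overlap, and the sh-LDB1 mean was 224% of sh-NC, with a log2 fold change of 1.16 ± 0.19 (edgeR adjusted p = 0.000469).

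The 2 other H2A calls rested on few counts and on shared sequence. H2AC14 had 15 and 7 counts in 6T-CEM sh-NC and 38 and 43 in sh-LDB1, with a log2 fold change of 1.74 ± 0.49 (edgeR adjusted p = 0.0135). H2AC7 had 2 and 8 counts in J.gamma1 sh-NC and 12 and 32 in sh-LDB1, with a log2 fold change of 2.24 ± 0.75 (edgeR adjusted p = 0.0278). Of the 150-base windows of H2AC14, 56.0% occur in another gene, chiefly H2AC13, and of those of H2AC7 79.5% occur in the overlapping gene ENSG00000282988. Each call was lost in 4 alternatives, with adjusted p between 0.0111 and 0.108 for H2AC14 and between 0.0123 and 0.36 for H2AC7. These and the other called members under 50 normalized counts (3 in 6T-CEM, 7 in J.gamma1) were named after their values were seen.

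H2AC20 and H2AC11, the leading H2A genes per length in the control cells of 6T-CEM and J.gamma1, were not called. H2AC20 had 118 and 97 counts in 6T-CEM sh-NC and 102 and 92 in sh-LDB1, at a log2 fold change of -0.27 ± 0.23. In J.gamma1 it had 19 and 20 counts against 20 and 15. H2AC11 had 37 and 43 counts against 22 and 27 in 6T-CEM, and 50 and 33 against 45 and 60 in J.gamma1. After normalization its groups stood apart in opposite directions, at log2 fold changes of -0.82 ± 0.38 (edgeR adjusted p = 0.122) and 0.48 ± 0.34 (edgeR adjusted p = 0.272). The difference between the lines was 1.30 ± 0.50 (edgeR adjusted p = 0.0816).

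The H2B class, the largest, had the most members called higher in each line. By share of tested members H4 stood above it in J.gamma1 (42.9%), with the copies H4C14 and H4C15 both counted. Of 18 H2B genes, 4 of 11 tested were higher in 6T-CEM (36.4%, background 15.1%), and J.gamma1 had 4 of 10 (40%, background 25.0%), while 10 of the 11 and 9 of the 10 had a positive log2 fold change. The median log2 fold change of the class was 0.73 in 6T-CEM against 1.00 in J.gamma1. The summed level of the class went from 20.3 ± 0.370 to 32.1 ± 1.39 CPM in 6T-CEM, and in J.gamma1 from 13.3 ± 0.739 to 25.4 ± 4.23 (SD, n = 2), without overlap.

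H2BC12 (chr6:27146361-27146855) was the most abundant H2B gene in both lines. It had 246 and 278 counts in 6T-CEM sh-NC and 512 and 433 in sh-LDB1. The groups did not overlap, at a log2 fold change of 0.73 ± 0.14 (edgeR adjusted p = 0.00127). In J.gamma1 it had 125 and 81 counts in sh-NC and 151 and 183 in sh-LDB1, with a log2 fold change of 0.84 ± 0.24 (edgeR adjusted p = 0.0132). The J.gamma1 groups stood apart, but the call was lost without sh-NC replicate 2 or without sh-LDB1 replicate 2, and the adjusted p ranged from 0.00155 to 0.0874.

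H2BC5 (chr6:26158122-26171349), whose promoter held no octamer match, had 57 and 51 counts in 6T-CEM sh-NC and 99 and 122 in sh-LDB1. Its log2 fold change was 0.91 ± 0.26 (edgeR adjusted p = 0.0152). The call was lost by DESeq2 and without sh-NC replicate 1, sh-NC replicate 2 or sh-LDB1 replicate 2, with adjusted p between 0.0142 and 0.145. In J.gamma1 it had 79 and 83 counts in sh-NC and 158 and 188 in sh-LDB1, and the log2 fold change was 1.24 ± 0.21 (edgeR adjusted p = 0.000519). The groups did not overlap in either line.

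H2BC11 (chr6:27125897-27132795) was the third H2B gene called in both lines. It had 21 and 33 counts in 6T-CEM sh-NC and 64 and 70 in sh-LDB1, and 20 and 33 in J.gamma1 sh-NC and 47 and 89 in sh-LDB1. The groups stood apart in both, at log2 fold changes of 1.19 ± 0.34 (edgeR adjusted p = 0.0156) and 1.49 ± 0.40 (edgeR adjusted p = 0.00965). The 6T-CEM call was lost by DESeq2 and without sh-NC replicate 1 or sh-LDB1 replicate 2 (adjusted p 0.0152 to 0.114), and the J.gamma1 call without sh-LDB1 replicate 2 (0.00329 to 0.129).

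The remaining H2B calls were of 1 line each. H2BC18 had 4 and 4 counts in 6T-CEM sh-NC and 17 and 24 in sh-LDB1, at a log2 fold change of 2.2 ± 0.66 (edgeR adjusted p = 0.0189), a call that every left-out library removed (adjusted p 0.0155 to 0.196 over all alternatives). It overlaps FCGR1A on the other strand by 177 exon bases. H2BC15 had 26 and 17 counts in J.gamma1 sh-NC and 48 and 65 in sh-LDB1, at a log2 fold change of 1.53 ± 0.38 (edgeR adjusted p = 0.0059), lost without sh-LDB1 replicate 2 (0.00361 to 0.0544). H2BC9, abundant in 6T-CEM, had 104 and 85 counts there in sh-NC and 126 and 110 in sh-LDB1, and its normalized groups overlapped.

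**Figure D2:**
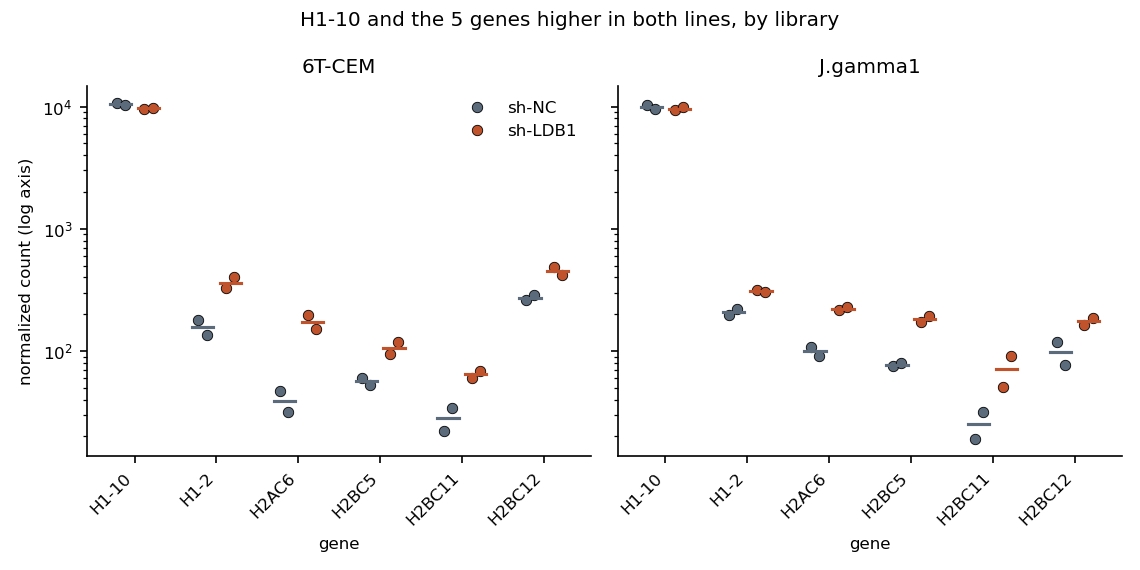
Normalized count (y axis, log scale) of H1-10 and of the 5 genes higher in both lines (x axis), with 1 point per library and a line at the mean of each group. H1-10 lies between 9292 and 10734 in all libraries, and for the other genes both sh-LDB1 points lie above both sh-NC points in each line.

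H3 and H4 genes were called in J.gamma1 and not in 6T-CEM, and none of them passed the edgeR test of the difference between the lines. Of 11 H3 genes, 3 were tested in J.gamma1 with 1 called (33.3%, background 25.0%). In 6T-CEM 5 were tested with 0 called by edgeR or DESeq2 (background 15.1%), and 1 had an unadjusted p under 0.05. H3C10 had 20 and 23 counts in J.gamma1 sh-NC and 61 and 46 in sh-LDB1, at a log2 fold change of 1.46 ± 0.37 (edgeR adjusted p = 0.0071), lost without sh-LDB1 replicate 1 (0.00676 to 0.0742 over the alternatives). In 6T-CEM it had 23 and 16 counts against 24 and 25. H3C8, the highest H3 gene per length, had 9 and 18 counts against 32 and 34 in 6T-CEM and 20 and 25 against 16 and 10 in J.gamma1, and neither change was called (edgeR adjusted p = 0.0819 and 0.335). H3C14 and H3C15, near-identical copies that share at least 98.9% of their 150-base windows, had 3 to 10 counts in every library and were not tested.

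Of 15 H4 genes, 7 were tested in J.gamma1 with 3 called (42.9%, background 25.0%). In 6T-CEM 8 were tested with 0 called by edgeR or DESeq2 (background 15.1%) and 0 at an unadjusted p under 0.05. H4C14 had 31 and 19 counts in J.gamma1 sh-NC and 57 and 78 in sh-LDB1, at a log2 fold change of 1.57 ± 0.36 (edgeR adjusted p = 0.00405). H4C15, all of whose 150-base windows occur elsewhere, chiefly in H4C14, had nearly the same counts, 33 and 18 against 56 and 77, at a log2 fold change of 1.52 ± 0.38 (edgeR adjusted p = 0.00615), lost without sh-LDB1 replicate 2 (adjusted p = 0.0526). The copies cannot be told apart by these counts and are best read as 1 result. With such copies summed, 10 members were higher in J.gamma1 and 8 of them were past 1 on the log2 scale. H4C14 in 6T-CEM had 29 and 39 counts against 61 and 24, and the groups overlapped.

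H4C8 had 2 and 5 counts in J.gamma1 sh-NC and 27 and 16 in sh-LDB1, at a log2 fold change of 2.73 ± 0.70 (edgeR adjusted p = 0.00753), lost without sh-LDB1 replicate 1 (0.00627 to 0.125 over the alternatives). An antisense gene shares 287 of its exon bases. H4C11, the highest H4 gene per length in 6T-CEM, had 60 and 60 counts there in sh-NC and 60 and 63 in sh-LDB1. Its log2 fold change was -0.09 ± 0.28, so that an interval of 2 SE ran from -0.65 to 0.48. H4C12, which shares 89.5% of its windows with other genes, chiefly H4C11, had 55 and 57 counts against 59 and 55. H4C9 had 37 and 50 counts against 57 and 61 in 6T-CEM, and 27 and 24 against 19 and 49 in J.gamma1, and was not called.

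Summed over each class, the sh-LDB1 libraries stood above the sh-NC libraries for H1 without H1-10, H2A, H2B and H4 in both lines and for H3 in J.gamma1. H2A went from 9.80 ± 1.31 to 14.7 ± 1.67 CPM in 6T-CEM, and in J.gamma1 from 10.2 ± 1.49 to 15.4 ± 0.533. H4 went from 10 ± 0.339 to 11.6 ± 0.488 and from 5.53 ± 0.791 to 9.18 ± 1.53. H3 went from 2.76 ± 0.652 to 3.78 ± 0.864 in 6T-CEM, with overlap, and from 2.88 ± 0.940 to 4.25 ± 0.815 in J.gamma1. H1 genes without H1-10 went from 6.60 ± 1.64 to 13.5 ± 1.58 and from 8.36 ± 1.20 to 11.9 ± 0.209, most of it H1-2. These sums are descriptions and were not tested.

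**Figure D3:**
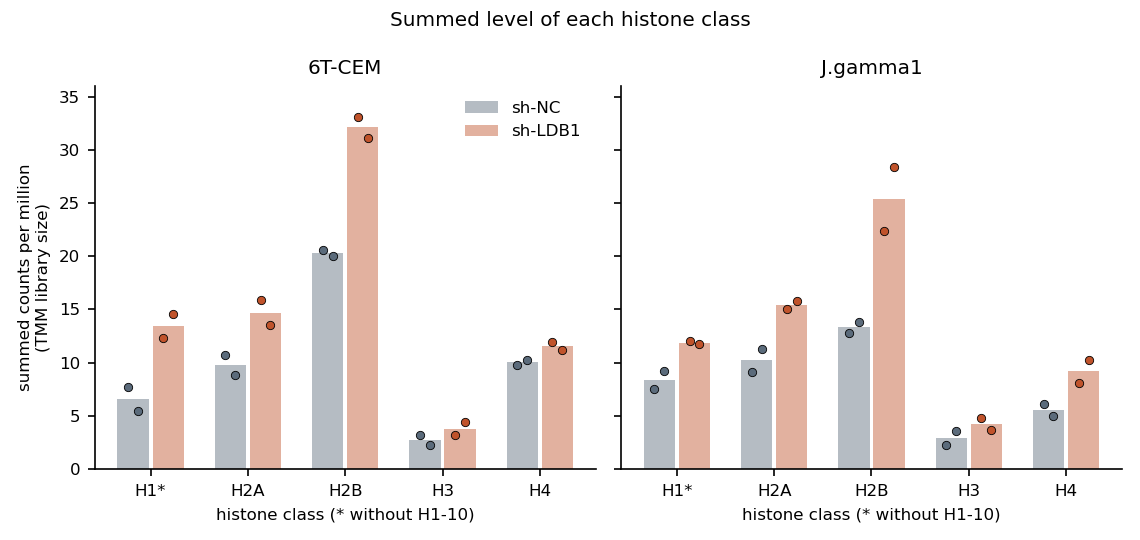
Summed CPM (y axis) of each histone class (x axis, H1 without H1-10) in 6T-CEM and J.gamma1, with 1 point per library and bars at the mean of 2 libraries. H2B is the highest class in all groups, at 20.3 against 32.1 in 6T-CEM and 13.3 against 25.4 in J.gamma1.

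Replicate spread was wide for these scarce transcripts. The median biological coefficient of variation was 27.0% over the tested members in 6T-CEM and 25.4% in J.gamma1, beside 11% and 9.47% over all genes tested. Their median count was 24.6 and 18.8 beside 526 and 521, and the median SE of a log2 fold change was 0.46 and 0.49 beside 0.13 and 0.12. The median absolute log2 ratio between replicates was 0.47 in 6T-CEM sh-NC, where counting error alone would give about 0.32, and 0.58 in J.gamma1 sh-NC, where it would give about 0.30. At this depth a change had to be well beyond its SE to be called. H2BC21 in 6T-CEM, at a log2 fold change of 1.07 ± 0.44, was not called (edgeR adjusted p = 0.0779). All medians over tested members leave out those that did not pass the filter, 32 of 68 in 6T-CEM and, for J.gamma1, 36 of 68.

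Comparing the lines, 27 members were tested in both. H1-2, H2AC6, H2BC5, H2BC11 and H2BC12 were called higher in both. Of these 27, 16 had a positive log2 fold change in both lines, 6 a negative one in both and 5 opposite signs. The shares of all genes called in both lines, or with the same sign in both, were not computed. The counts for both lines are therefore descriptions without a background. In the edgeR test of the difference itself, over 42 members and all 8 libraries, 0 members passed at an adjusted p under 0.05 (background 12% larger and 12.4% smaller), and DESeq2 also called 0. At an unadjusted p under 0.05 there were 6. H2AC6 changed less in J.gamma1, at a difference of -0.99 ± 0.35, without passing (edgeR adjusted p = 0.0589). It passed without 6T-CEM sh-NC replicate 1 or sh-LDB1 replicate 2, and without 6T-CEM sh-LDB1 replicate 1 H4C14 and H4C3 passed. The background past a difference of 1 or -1 on the log2 scale was 3.03% and 2.84%. The calls of H3 and H4 genes in J.gamma1 alone are therefore not shown to be particular to that line.

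Some histone genes also differed in level between the control cells of the lines, in smaller shares than among all genes tested. Of 42 members tested, 4 were higher in J.gamma1 sh-NC than in 6T-CEM sh-NC (background 34.6%) and 10 were lower (background 31.1%). Members have low counts, so a typical one needed a larger difference to be called. The smaller shares therefore do not show that histone genes differ less between the lines. H2AC20 was lower, at a log2 difference of -2.71 ± 0.31, with 19 and 20 counts against 118 and 97 in 6T-CEM (edgeR adjusted p = 7.9e-06). H2BC9 was lower, at -4.09 ± 0.48, with 3 and 10 counts against 104 and 85 (edgeR adjusted p = 1.00e-05). H2BC12 was lower, at -1.60 ± 0.21 (edgeR adjusted p = 2.19e-05), and H4C11 and H4C12, which share most of their sequence, were lower at -2.07 ± 0.34 and -2.06 ± 0.35.

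Higher in J.gamma1 were H2AC6 by 1.22 ± 0.26 and H2BC21 by 1.82 ± 0.36 on the log2 scale. The head-to-head pair H2AC25 and H2BC26 on the long arm of chromosome 1 was at 0 counts in all 4 libraries of 6T-CEM. In J.gamma1 sh-NC H2AC25 had 69 and 141 counts, at least 32.2-fold higher against 3 counts per library, and H2BC26 had 12 and 13, at least 3.84-fold higher. In turn H2AC8 and H2BC8, another such pair, had 15 and 12, and 10 and 5 counts in 6T-CEM sh-NC and were at 0 in J.gamma1 sh-NC. H1-10 was lower in J.gamma1 at -0.21 ± 0.05 (edgeR adjusted p = 0.00247), a call lost when libraries were scaled by total counts, which moved the median of all genes from 0.05 to 0.19.

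Among the genes with a stem-loop, some have a longer annotated transcript, with exons at least 100 bases past the stem-loop. There were 16 such genes, of which 4 of 13 tested were higher in 6T-CEM (30.8%), and J.gamma1 had 8 of 14 (57.1%). Of the 45 stem-loop genes without one, 3 of 22 tested were higher in 6T-CEM (13.6%), and J.gamma1 had 3 of 17 (17.6%). The background was 15.1% and 25.0%, and the 8 genes include both copies H4C14 and H4C15. The median log2 fold changes were 0.65 against 0.08 in 6T-CEM and 1.35 against 0.30 in J.gamma1. The sets also differ in level and class. Over all genes of each set the median sh-NC count was 18.5 against 6.5 in 6T-CEM and 23.25 against 6 in J.gamma1. Many of the genes with a longer transcript are H2B genes. H1-2, H2AC14, H2AC7 and H2BC12 were the called members without a longer transcript. The counts do not say which part of a gene the reads came from, and the difference between these sets was not tested.

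**Figure D4:**
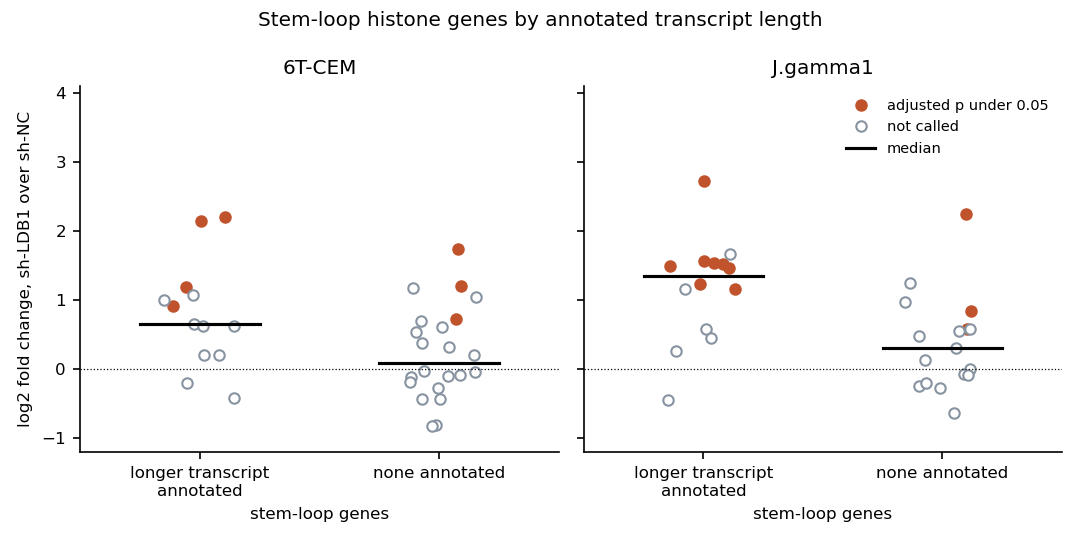
Log2 fold change of sh-LDB1 over sh-NC (y axis) for tested stem-loop genes with and without a longer annotated transcript (x axis), in 6T-CEM and J.gamma1, with lines at the medians. The median lies at 0.65 against 0.08 in 6T-CEM and at 1.35 against 0.30 in J.gamma1, and the ranges overlap.

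Calls were found in H2A and H2B genes with and without the octamer. Of H2A and H2B genes with an octamer, 5 of 14 tested were higher in 6T-CEM (35.7%), against J.gamma1 with 4 of 11 (36.4%), and of those without, 1 of 4 (25%) and 2 of 6 (33.3%). These shares rest on 1 to 5 genes each, beside a background of 15.1% and 25.0%. The pair of H2AC6 and H2BC4 starts 219 bases apart. H2AC6 was called in both lines, while H2BC4 had log2 fold changes of 0.63 and 0.58 and was called in neither. H2BC11 was called in both lines and its partner H2AC11, 248 bases away, in neither. H2BC12 and H2AC12, 251 bases apart, stood at 19 and 0.467 CPM per kilobase in 6T-CEM sh-NC, so the partners of a pair also differed in level.

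The genes that make and handle histone mRNA were called in shares close to or below those of all genes. In the list of 30 histone mRNA processing and transcription genes, 5 of 29 tested were higher and 3 lower in 6T-CEM (median 0.00), and 7 higher and 9 lower of 30 in J.gamma1 (median -0.07). The background was 15.1% higher and 16.2% lower in 6T-CEM, and for J.gamma1 25.0% and 26.5%. The 5 higher genes in 6T-CEM were 2 without sh-NC replicate 1 and 3 without either sh-LDB1 library, and the 7 in J.gamma1 were 4 without sh-NC replicate 1. UPF1, the helicase needed to degrade histone mRNA, rose by 0.30 ± 0.06 on the log2 scale in 6T-CEM, from 5839 and 6251 counts to 7818 and 8317 (edgeR adjusted p = 0.00128). POU2F1, which encodes the octamer factor OCT1, rose by 0.30 ± 0.07 in 6T-CEM (edgeR adjusted p = 0.00318). POU2AF1, a coactivator of octamer factors, fell by 1.12 on the log2 scale in J.gamma1, from 173 and 146 counts to 57 and 76. CPSF4, a cleavage factor subunit, and NCBP1, a cap-binding protein, fell by 0.47 and 0.35 in 6T-CEM, and NCBP1 fell by 0.15 in J.gamma1. SRRT, a partner of the cap-binding complex, and CSTF3, a cleavage stimulation factor, rose by 0.38 and 0.34 in J.gamma1. In 6T-CEM SRRT rose by 0.20. HINFP, an activator of H4 genes, fell by 0.67 in J.gamma1, from 1010 and 1091 counts to 563 and 634.

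Histone chaperones, which carry new histones to DNA, moved in both directions, with more genes lower than higher. Of 28 genes, 2 were higher and 12 lower in 6T-CEM (median -0.13), and 6 higher and 15 lower in J.gamma1 (median -0.18), beside the same backgrounds. Without 6T-CEM sh-NC replicate 1, 7 were lower there. HAT1, which acetylates new H4, fell from 3494 and 3322 counts to 2124 and 2097 in 6T-CEM, and by 1.11 on the log2 scale in J.gamma1. DNAJC9, an H3 and H4 chaperone, fell in both lines, by 0.89 and 1.13 on the log2 scale. CHAF1B, a subunit of the CAF-1 assembly complex, fell by 0.74 in 6T-CEM and 1.22 in J.gamma1. ASF1B, an H3 and H4 chaperone, and HJURP, the CENPA chaperone, rose by 0.40 and 0.29 in 6T-CEM, and NCL and NPM1, nucleolar chaperones, rose by 0.82 and 0.73 in J.gamma1.

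Of 19 replication-independent histone variants, 2 were higher and 2 lower of 9 tested in 6T-CEM (median 0.02), and 2 higher and 4 lower of 8 in J.gamma1 (median -0.12). The background was 15.1% higher and 16.2% lower in 6T-CEM, and 25.0% and 26.5% in J.gamma1. These counts of 2 to 4 genes are too few to set the variants apart from all genes. The 4 lower genes were 2 without J.gamma1 sh-NC replicate 1 or sh-LDB1 replicate 1, and the 2 higher were 1 without sh-NC replicate 2. CENPA, the centromeric H3, rose in both lines, by 0.62 ± 0.07 in 6T-CEM and 0.21 ± 0.06 in J.gamma1. H3-3B, which encodes H3.3, had 14452 and 14893 counts against 12882 and 12776 in 6T-CEM, and fell by 0.32 on the log2 scale. In J.gamma1 H3-3B fell by 0.15. H2AX, the variant phosphorylated at DNA breaks, rose by 0.32 and MACROH2A1 fell by 0.24 in 6T-CEM. MACROH2A2 had 99 and 92 counts against 171 and 169 in J.gamma1, a rise of 0.98. H2AZ1 had 24389 and 25069 counts against 16891 and 19305 in J.gamma1, and fell by 0.31, and H2AZ2 fell by 0.22 there.

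S-phase genes were more often called lower than higher in sh-LDB1. Of 24, 2 were higher and 14 lower in 6T-CEM (median -0.19), and 1 higher and 21 lower in J.gamma1 (median -0.50), against backgrounds for lower genes of 16.2% and 26.5%. Without 6T-CEM sh-NC replicate 1, 8 of the 24 were lower there, and in J.gamma1 it was 21 whichever library was left out. The higher genes were 1 in 6T-CEM without sh-NC replicate 1, sh-NC replicate 2 or sh-LDB1 replicate 2, and the 1 in J.gamma1, POLA1, lost its call without sh-NC replicate 1 or sh-LDB1 replicate 1. CDC25A, the phosphatase that activates CDK2, fell by 0.86 on the log2 scale in 6T-CEM and by 1.42 in J.gamma1. CCNE1, which encodes cyclin E1, fell by 1.15 in 6T-CEM and 0.75 in J.gamma1. CCNE2, cyclin E2, fell by 0.67 in 6T-CEM and 1.18 in J.gamma1. CCNA2 (cyclin A2) rose by 0.49 and TK1 (thymidine kinase) by 0.21 in 6T-CEM, and POLA1, a DNA polymerase subunit, by 0.24 in J.gamma1. These genes were tested on the same control libraries as the members, and the part of the cell cycle in the histone counts was not tested.

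**Figure D5:**
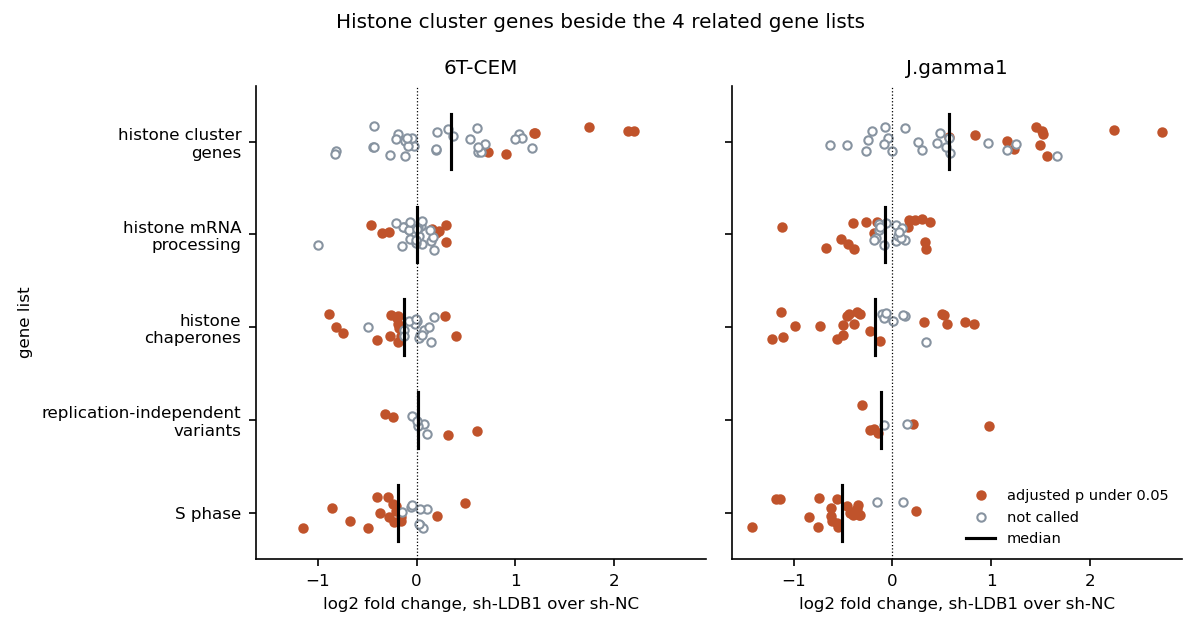
Log2 fold change of sh-LDB1 over sh-NC (x axis) of the tested histone cluster genes and of 4 related lists (y axis), in 6T-CEM and J.gamma1, with 1 point per gene, filled at an adjusted p under 0.05, and lines at the medians. The histone cluster genes have medians of 0.35 and 0.57, and the S-phase genes -0.19 and -0.50.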

How the data were processed

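Total RNA was prepared with TRIzol and an Illumina TruSeq RNA kit and sequenced in 150 bp paired reads. The authors aligned them to hg38 with HISAT2 2.2.0, quantified genes with StringTie, and deposited whole-number counts per gene, 1 table per cell line, without normalization or pooling. The annotation release, strand and treatment of reads that match several genes are not given in the sources used here. Symbols, exon lengths and stem-loops came from GENCODE release 44 on hg38, promoters from RefSeq GRCh38.p14.

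Each line was fitted by itself with edgeR 4.0.16 (R 4.3.3): TMM, filterByExpr (minimum count 10), robust quasi-likelihood test and Benjamini-Hochberg adjustment over the genes tested (16059 in 6T-CEM, 17215 for J.gamma1). Differences between lines used 1 fit to all 8 libraries (18552 genes). Normalized counts are scaled within a line by TMM library size. Levels per length are divided by summed exon length. Genes were called at an adjusted p under 0.05. The SE of an edgeR log2 fold change was derived as its absolute value divided by the square root of the test's F statistic. Such an SE is uncertain for changes near 0. The authors used DESeq2, here an alternative (1.42.0). Scripts were tested on simulated data. Precision is limited by counts of under 100 for most members, and errors from 2 libraries are themselves uncertain. Replicate libraries differed beyond counting error (chi-square per degree of freedom 6.59 to 10.8), so each was counted as its own library.

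The members and lists were chosen with earlier results of these data known. In all, 1 member by the symbol rule and 1 marker are not reported here, and that member is left out of all counts and sums of members. Named in full are LDB1, H1-10, the leading gene of each class per length, up to 5 members per direction with the largest called change, at least 50 normalized counts and no overlap, members that differ between lines, and the copies H3C14, H3C15, H4C14 and H4C15. From each of the other lists, the 2 higher and 2 lower genes with the largest change were eligible. Alternatives were other scaling, filters, DESeq2, 1 fit to all libraries, the replicate number as a term, summed copies and leaving out each library.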

Additional observations from a re-analysis of the deposited data

Results flagged for a closer look

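In the edgeR test of the difference between the lines (J.gamma1 change minus 6T-CEM change, log2 scale), LDB1 differed by 0.70 (adjusted p = 0.000237), having fallen less in J.gamma1.

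In the same edgeR test 41 of 91 tested genes of the 4 related lists differed, 6 with a larger and 35 with a smaller value in J.gamma1 (background 12% and 12.4%). The 16 of them that are named in the report follow. The chaperones NCL and NPM1 had larger values in J.gamma1 by 1.00 and 0.92 on the log2 scale, where they rose in J.gamma1 and fell in 6T-CEM. The chaperones ASF1B and HJURP went the other way, with differences of -0.76 and -0.73, and so did TK1, with -0.54. CHAF1B, HAT1 and DNAJC9 fell in both lines and fell further in J.gamma1, with differences of -0.48, -0.29 and -0.25, as did the S-phase gene CDC25A with -0.56. Among the histone variants the differences were -0.41 for CENPA, -0.38 for H2AZ1 and -0.24 for H2AZ2. They were -0.47 for HINFP, -0.43 for POU2F1, -0.38 for CCNA2 and 0.30 for POLA1. Adjusted p for these 16 genes ranged from 4.05e-07 for NCL to 0.0226 for HINFP.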

How the results depend on the processing

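By DESeq2, 3 members were higher in 6T-CEM and 2 of them past a log2 fold change of 1, a number that was 3 with all 8 libraries in 1 fit. The median over members in 6T-CEM was 0.62 with a filter on a mean of 10 counts and 0.19 with no filter. Leaving out each library in turn gave 3 to 7 higher members and 2 to 6 past log2 1 in 6T-CEM with medians of 0.31 to 0.54. In J.gamma1 it gave 6 to 11 higher, 0 to 1 lower and 5 to 10 past log2 1, with medians of 0.45 to 1.00. For the difference between lines it gave 0 to 1 member with a larger and 0 to 1 with a smaller change in J.gamma1. Same-numbered libraries of a line did not deviate together over all genes (r = -0.0146 in 6T-CEM and, for J.gamma1, -0.0377). An r over all genes would miss a shared culture or batch that moved few genes, so whether they share one is not known. With the replicate number as a block, 7 and 11 members were higher, as without it, and 1 member, H2AC6, had a smaller change in J.gamma1.

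H2AC20 in J.gamma1, at -0.01, turned to 0.023 with total counts and to 0.00034 by DESeq2, and ranged from -0.27 to 0.22 with libraries left out. Other uncalled changes that turned sign only with a library left out were, in J.gamma1, H1-10 (-0.096 to 0.0020), H4C9 (-0.24 to 1.05), H4C11 (-0.20 to 0.023) and POU2F1 (-0.26 to 0.0050), and in 6T-CEM, H2AZ2 (-0.0033 to 0.040), H3C10 (-0.053 to 0.52), H4C14 (-0.60 to 0.70) and MACROH2A2 (-0.21 to 0.37). Class medians also changed sign: H2A in 6T-CEM was -0.12 with the filter on the mean, H4 in 6T-CEM -0.09 with copies summed, H3 in J.gamma1 -0.62 with all 8 libraries in 1 fit and H4 in J.gamma1 -0.09 with no filter. With libraries left out, 6T-CEM medians ran from -0.32 to 0.28 for H1, -0.42 to 0.62 for H3 and -0.08 to 0.46 for H4, and J.gamma1 medians from -0.29 to 0.43 for H1 and -0.20 to 0.63 for H4. The cause was not tested. Most members had under 100 counts. Summing H2AC18 with H2AC19 was not run, as neither was matched.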
